A study of Homo sapiens with 3 samples.

Results

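The genes described here encode the core factors of nonsense-mediated decay (NMD), UPF1, UPF2, UPF3B, SMG1, SMG5, SMG6, SMG8 and SMG9. They were found in the tables by gene name, and 5 of these 8 genes (UPF1, UPF2, SMG6, SMG8 and SMG9) had a row in the tables, out of 8812 transcripts listed in every library. UPF3B, SMG1 and SMG5 were not analysed here. Ribosome profiling, which sequences the mRNA fragments covered by ribosomes, was carried out in HEK293T cells, an immortalised human line of embryonic kidney origin. Untreated A and Untreated B are the 2 libraries of cells given no drug, and G418 A is the only library analysed here of cells that had been exposed for 24 h to G418 at 500 µg/mL. G418 is an aminoglycoside that binds the decoding centre of the ribosome and makes it accept wrong tRNAs, also at stop codons. The question put to these genes was whether ribosomes on them changed under the drug, in the coding sequence (CDS), upstream of it in the 5'UTR, and downstream of the stop codon. The identity of the line was taken from the labels, and since all 3 libraries come from a single line, the values describe this line only.

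NMD destroys mRNAs on which translation ends in an unusual place, such as upstream of a splice junction still marked by an exon junction complex. UPF1 is an RNA helicase that acts at terminating ribosomes, UPF2 and UPF3B connect it to the exon junction complex, and the kinase SMG1, held in a complex with SMG8 and SMG9, phosphorylates it. Phosphorylated UPF1 then attracts SMG6, an endonuclease that cuts the mRNA near the stop codon, and SMG5, which helps to bring in the enzymes of deadenylation and decapping. Several mRNAs of the pathway are themselves known as substrates of it, through long 3'UTRs or upstream reading frames, so the layout of each transcript is given before the values.

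The stop codons of the 5 genes are shown because readthrough depends on the stop codon and on the bases beside it. Each line runs 5' to 3' on the mRNA strand from 15 nt before the stop codon to 12 nt after it, with the stop codon in capitals, as read from the hg38 genome with the GENCODE 44 annotation.
UPF1: gggctgtcccagtatTAAaaggtggcggcg
UPF2: ggtgggaggagacgtTGAtccagcagcacg
SMG6: tgggcccaggtgggcTGAgggagccacact
SMG8: aaggcagtaacacaaTAAgtgttttccagc
SMG9: agccgcctgctggccTGAggccaaggagag
UPF1 and SMG8 ended in TAA, and UPF2, SMG6 and SMG9 ended in TGA. Of the 8812 transcripts listed in every library, 50.1% ended in TGA and 27.8% in TAA. SMG6 and SMG9 shared the signal TGAG, found on 19.2% of these listed transcripts. The annotation could be matched to 8579 of the listed transcripts, called matched transcripts below.

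UPF1 (ENST00000262803.9) lies on the plus strand of chr19:18831959-18868230, with its stop codon at 18866161 to 18866163 in exon 23 of 24. It was the only gene of the 5 with a splice junction after the stop codon, 3 nt beyond it. A junction at any distance past the stop codon was annotated for 4.02% of matched transcripts, and a junction over 50 nt past it for 0.350%. UPF2 (ENST00000397053.6) lies on the minus strand of chr10:11920023-12043170, with its stop codon at 11921298 to 11921300 in exon 22 of 22. SMG6 (ENST00000263073.11) lies on the minus strand of chr17:2059843-2303785 and stops at 2061492 to 2061494 in exon 19 of 19. SMG8 (ENST00000543872.6) lies on the plus strand of chr17:59209400-59215239 and stops at 59215000 to 59215002 in exon 5 of 5. SMG9 (ENST00000270066.11) lies on the minus strand of chr19:43727983-43754962 and stops at 43731596 to 43731598 in exon 14 of 14.

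The 3'UTRs differed widely around the median of 934.5 nt over the 8812 transcripts listed in every library. SMG9 had the longest, 3613 nt, longer than 87.9% of them, and SMG8 the shortest, 237 nt, longer than 16.8%. UPF1, SMG6 and UPF2 had 3'UTRs of 1713, 1649 and 1275 nt. The median and the percentages use deposited lengths, which were 6 nt shorter than annotated for 87.3% of matched transcripts. Readthrough is counted between the stop codon and the next in-frame stop codon. This distance was 36 nt in UPF1, 39 nt in UPF2 and 42 nt in SMG6, against a median of 69 nt. It was longer in SMG9, at 114 nt, and in SMG8, at 141 nt. The study reports that under G418 some ribosomes also read through that next stop codon. SMG8 had 1 in-frame stop codon in its 3'UTR, while SMG9 had 42.

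The CDS density is given in RPKM, the reads on the CDS per kilobase, scaled to a common total of assigned reads, and it rises with the amount of mRNA as well as with the number of ribosomes on each mRNA. Fewer mRNAs and fewer ribosomes per mRNA could not be told apart, nor could fewer cells of a kind and less RNA per cell. Depth was 5857230 reads for Untreated A, 9477972 for Untreated B and 7216039 for G418 A, and values listed without a library name follow this order. Values marked ± are means of the 2 untreated libraries with their SD. A single G418 library was analysed here, so nothing below measures the variation between treated cultures. The study describes its replicates as biological, while the labels of the untreated libraries do not name separate cultures. Counting intervals are exact 95% intervals, binomial for shares and Poisson for readthrough reads, and cover counting error only.

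UPF1 carried the most ribosomes of the 5 genes per length of CDS, and the order UPF1, SMG8, SMG9, UPF2, SMG6 held in all 3 libraries. Averaged over the untreated libraries the density was 53.5 ± 6.11 RPKM for UPF1, 32.9 ± 3.63 for SMG8, 24.4 ± 3.21 for SMG9, 13.6 ± 0.530 for UPF2 and 11.6 ± 0.962 for SMG6 (SD, n = 2). UPF1 lay above SMG8, and SMG9 above UPF2, beyond counting error in every library. Density of SMG8 over that of SMG9, the kinase partners, was 1.14 (interval 0.972 to 1.33), 1.60 (1.41 to 1.82) and 1.07 (0.943 to 1.21), so this pair differed beyond counting error only in Untreated B. The ratio of UPF2 to SMG6 was 1.21 (1.02 to 1.43), 1.13 (0.9999 to 1.29) and 1.13 (0.964 to 1.32), close to the limit of counting error in each. Among the 5684 transcripts with enough reads to test, UPF1 stood at percentile 58.7, 63.2 and 56.9 of CDS density, and SMG6 at percentile 13.4, 14.0 and 9.98.

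**Figure D1:**
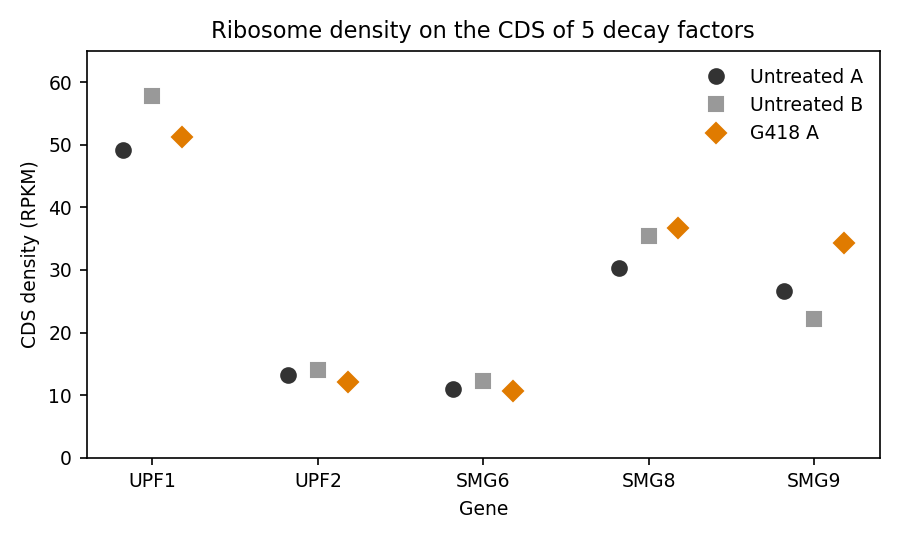
CDS density in RPKM (vertical axis) of the 5 genes (horizontal axis), with a point for each library and no error bars. UPF1 lies highest at 49.2 to 57.8 RPKM, SMG6 lowest at 10.7 to 12.3 RPKM, and the G418 point lies above both untreated points for SMG8 and SMG9 only.

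Under G418 the ribosome density on the 5 coding sequences was 0.886 to 1.41 times the untreated mean, lowest for UPF2 and highest for SMG9. None of the 5 passed the edgeR quasi-likelihood test at an adjusted p of 0.05, against 3.62% of the 5684 transcripts tested, and 0 of 5 had an unadjusted p under 0.05, against 14.9% of them. DESeq2 also called 0, with adjusted p-values missing for 3 of the 5. The fit has 1 residual degree of freedom, from the untreated pair, and assumes that the single G418 library varies as the untreated libraries do. Its prior degrees of freedom, the weight given to the spread shared over transcripts, were infinite at the median. The SEs, intervals and p-values therefore rest on that shared spread and not on the untreated pair of each gene. The G418 density lay above both untreated libraries for 2 of 5 genes, against 46.3% of transcripts tested, and below both for 2 of 5, against 27.9%. A log2 ratio of 1 or more in size was reached by 0 of 5, against 1.06% of transcripts tested upward and 0.088% downward.

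SMG9, which with SMG8 holds the SMG1 kinase in check, had the largest difference of the 5. Its CDS density was 26.7 and 22.1 RPKM without the drug and 34.3 RPKM with it, from 239, 321 and 379 reads. The G418 library was the highest of the 3. The log2 ratio to the untreated mean was 0.49, compared with -0.27 for Untreated B over Untreated A, and the edgeR estimate of 0.50 had an SE of 0.26 and an adjusted p of 0.340. Its 95% interval ran from -0.0041 to 0.999 on the log2 scale, which just included no change.

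SMG8, the other kinase partner, had 30.3, 35.4 and 36.6 RPKM (522, 988 and 778 reads). G418 A was above both, and closer to Untreated B than the untreated libraries were to each other. The log2 ratio was 0.16 over the untreated mean, between 0.05 and 0.27 over the single untreated libraries, and edgeR gave an SE of 0.19 and an adjusted p of 0.801.

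UPF1, the central helicase, had 49.2, 57.8 and 51.2 RPKM from 957, 1821 and 1229 reads, so the G418 library fell between the untreated libraries. Its log2 ratio was -0.06 over the untreated mean. It was 0.06 when Untreated A was the reference and -0.17 when Untreated B was, so the sign depended on that choice. With the deepest counts of the 5 it had the narrowest edgeR interval, -0.40 to 0.27, with an adjusted p of 0.927.

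UPF2, the adaptor between UPF1 and UPF3B, had 13.2, 13.96 and 12.04 RPKM (293, 501 and 329 reads). G418 A was below both untreated libraries, with a log2 ratio of -0.17 over their mean, an edgeR interval of -0.65 to 0.30 and an adjusted p of 0.835. SMG6, the endonuclease, had 10.9, 12.3 and 10.7 RPKM (271, 493 and 326 reads). It too was lowest in G418 A, by 0.03 on the log2 scale below Untreated A, and its log2 ratio over the untreated mean was -0.12, with an interval of -0.61 to 0.36 and an adjusted p of 0.897. Over the 5 genes the median log2 ratio was -0.06, compared with 0.07 over all transcripts tested. This median changed sign with the reference, from 0.06 against Untreated A to -0.17 against Untreated B.

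The wider pathway was described with 5 lists of 65 further genes, of which 58 were listed and 51 had enough reads to test. Of these 51, 1 passed the edgeR test as higher under G418 and 0 as lower, where 3.04% and 0.581% of all transcripts tested passed. The median log2 ratio over the 51 was -0.03. The gene that passed was RNPS1, a splicing factor attached to the exon junction complex. RNPS1 had 125.8, 123.4 and 189.1 RPKM, with G418 A above both untreated libraries, with a log2 ratio of 0.60 (SE 0.18, adjusted p = 0.0341 by edgeR). Its call was lost with TMM normalisation (log2 ratio 0.53, adjusted p = 0.113), with DESeq2 (0.53, adjusted p = 0.367) and in edgeR at a minimum of 500 reads (0.60, adjusted p = 0.101).

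In the exon junction complex list 9 genes were tested, with a median log2 ratio of 0.01. Among 12 tested paralogues and partners of the core factors, 0 passed and the median was -0.05. The lowest log2 ratio was that of MOV10, an RNA helicase that binds UPF1, with 13.8, 22.4 and 12.7 RPKM (-0.51, adjusted p = 0.290 by edgeR). The untreated libraries themselves differed by 0.70 on the log2 scale for MOV10.

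Both tested release factors, the proteins that end translation at stop codons, missed the threshold. ETF1 also missed it with TMM and with DESeq2, where its log2 ratio was 0.44, and at a minimum of 500 reads (0.51). ETF1, which recognises all stop codons, had 147.9, 129.6 and 197.2 RPKM (log2 ratio 0.51, adjusted p = 0.0561 by edgeR), and its G418 value was above both untreated ones. GSPT2, a GTPase partner of ETF1, had 22.4, 20.8 and 16.0 RPKM, below both under G418 (-0.43, adjusted p = 0.517 by edgeR).

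Of 14 tested enzymes and cofactors of decapping, deadenylation and exonucleolytic decay, 0 passed, and the median log2 ratio was 0.06. The decapping scaffold PATL1 was at the top (0.33) and the helicase DDX6 at the bottom (-0.33). Of 14 tested genes with mRNAs known as natural substrates of NMD, 0 passed either, and the median was -0.09. These values are for the 1 transcript kept for each gene, and whether that transcript is the one NMD degrades was not tested. ATF4, a transcription factor of the integrated stress response whose mRNA has upstream reading frames, had the highest ratio, with 22.4, 20.4 and 28.3 RPKM (0.40, adjusted p = 0.635 by edgeR). CDKN1A, a cell cycle inhibitor, had the lowest, with 108.6, 145.5 and 99.0 RPKM (-0.36, adjusted p = 0.492 by edgeR).

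**Figure D2:**
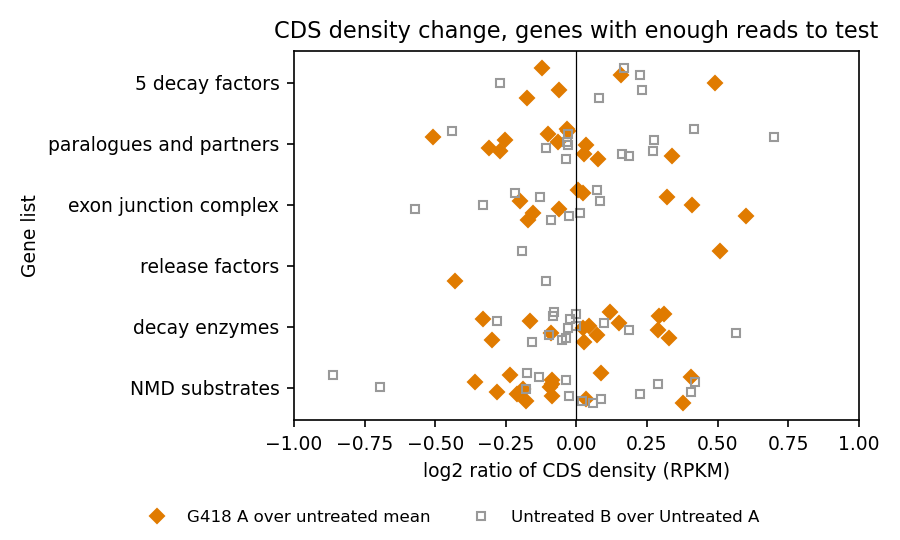
log2 ratio of CDS density in RPKM (horizontal axis) for the tested genes of each list (vertical axis, where points of a list are spread only for visibility). Filled diamonds are G418 A over the untreated mean and open squares are Untreated B over Untreated A. The diamonds of the 5 decay factors run from -0.17 to 0.49 and overlap the range of the untreated pair, -0.27 to 0.23.

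The share of reads in the 5'UTR ranged from 0% in SMG8 to 7.72% in SMG9, and the genes with upstream ATGs had the highest shares of the 5 in every library, although outside Untreated B the interval of UPF2 overlapped those of UPF1 and SMG6, and in Untreated A also that of SMG8. The share is not corrected for the length of the 5'UTR or CDS. As a percent of CDS density, the 5'UTR density in G418 A was 29.9 for UPF2, 28.7 for SMG9, 22.0 for SMG6 (1 read) and 16.3 for UPF1. In Untreated A it was 9.61 for UPF2 (2 reads) and 41.4 for SMG9. In Untreated B it was 47.8 for UPF2 and 18.5 for SMG9, so their order reversed between these libraries. SMG9 and UPF2 are the genes with an ATG upstream of the start codon, found on 40.9% of matched transcripts. The upstream ATGs are shown with 6 nt before and 1 nt after, 5' to 3' on the mRNA strand, with the ATG in capitals. They are sites at which a ribosome could begin, but whether any did was not tested. UPF1 has no upstream ATG and also had 5'UTR reads.
SMG9, 285 nt before the start codon: cagcgcATGc
UPF2, 190 nt before the start codon: aagtgaATGg
UPF2, 179 nt before the start codon: actcatATGa
UPF2, 127 nt before the start codon: atcggcATGc
UPF2, 77 nt before the start codon: gcgcggATGg
The frame opened in SMG9 has 92 codons, closes before the start codon and lies in the same frame as the CDS. In UPF2 the frames have 4, 13, 45 and 19 codons in the order shown, and that of 45 codons runs past the start codon while the others close before it. UPF1, SMG6 and SMG8 have no upstream ATG.

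SMG9 had 20 of 259 reads in its 5'UTR (7.72%, interval 4.78 to 11.7) and 12 of 337 (3.56%, 1.85 to 6.14) in the untreated libraries and 22 of 407 under G418 (5.41%, 3.42 to 8.07). The G418 share lay between the untreated shares. UPF2 had 2 of 295 reads (0.678%, 0.0822 to 2.43), 17 of 519 (3.28%, 1.92 to 5.19) and 7 of 337 (2.08%, 0.839 to 4.23) in the same order, again with G418 A between the untreated libraries.

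UPF1 had 4 of 961 reads in its 5'UTR (0.416%, interval 0.114 to 1.06) and 13 of 1837 (0.708%, 0.377 to 1.21) in the untreated libraries and 16 of 1255 under G418 (1.27%, 0.730 to 2.06). Its G418 share was the highest of the 3, and its interval overlapped those of both untreated libraries. SMG6, whose annotated 5'UTR is only 65 nt long, had 0 of 271 and 0 of 493 reads in the untreated libraries, which allow up to 1.11% and 0.609%, and 1 of 328 in G418 A. SMG8 had 0 of 522, 0 of 988 and 0 of 783 reads, which allow up to 0.575%, 0.304% and 0.383%, although its 5'UTR of 264 nt is about as long as that of UPF2.

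Reads in the 5'UTR were thus found for 3 of 5, 3 of 5 and 4 of 5 genes in the order of libraries given above, where 63.1%, 66.5% and 64.1% of tested transcripts had them. The G418 share was above both untreated libraries for UPF1 and SMG6, 2 of 5, compared with 19.5% of tested transcripts, and below both for 0 of 5, compared with 28.4%. For SMG6 the higher share rested on 1 read. SMG6 and SMG8 had 0 reads in the 5'UTR in both untreated libraries, so their G418 share could not fall below both. Summed over the 5 genes, 26 of 2308, 42 of 4174 and 46 of 3110 reads lay in the 5'UTR, or 1.13% (interval 0.737 to 1.65), 1.01% (0.726 to 1.36) and 1.48% (1.08 to 1.97). The untreated mean was 1.07% ± 0.0851 (SD, n = 2) and the G418 share was 1.39 times this mean, with overlapping intervals. Over all tested transcripts the share was 1.67%, 1.77% and 1.48%.

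**Figure D3:**
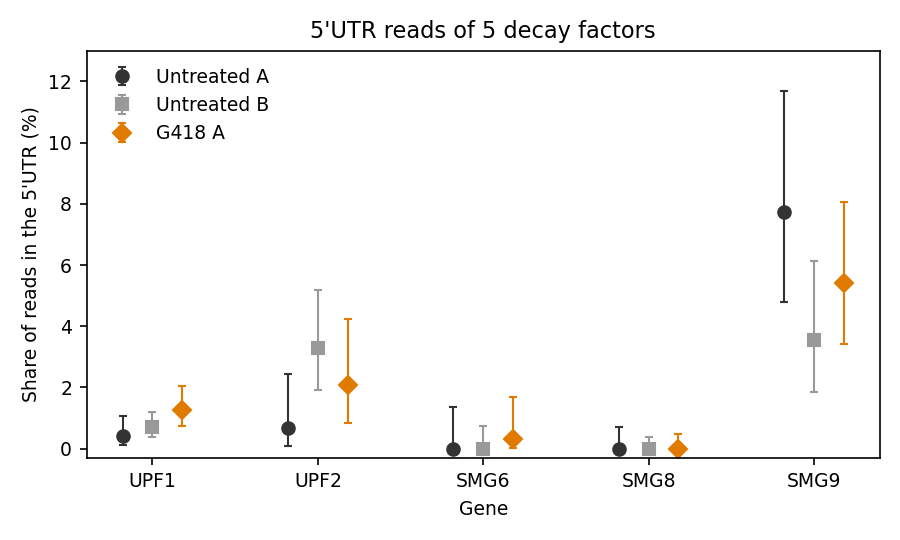
Share of the reads of each transcript that lie in its 5'UTR, in percent (vertical axis), for the 5 genes (horizontal axis) in each library. Bars are exact 95% binomial intervals, and those of G418 A overlap both untreated intervals for each gene.

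Readthrough is given as the ribosome readthrough score (RRTS), the density between the stop codon and the next in-frame stop codon as a percent of the CDS density, with the first 6 nt left out. None of the 5 genes had a readthrough read in either untreated library, where 24.0% (Untreated A) and 22.3% (Untreated B) of tested transcripts had any. At the pooled RRTS of all tested transcripts, only 0.850 and 1.16 reads would have fallen on the 5 genes together in these libraries, so their readthrough without the drug was below what this depth can show. In G418 A, 4 of 5 genes had readthrough reads, against 75.8% of tested transcripts. The pattern of 0 reads in both untreated libraries with reads in G418 A was seen for 4 of 5 genes and for 44.1% of tested transcripts. The RRTS was thus higher in G418 A than in both untreated libraries for 4 of 5 genes, against 72.0%.

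UPF1, with its TAA followed by A, had 0 readthrough reads in Untreated A and Untreated B, which allow an RRTS up to 34.7% and 18.3%. It had 4 in G418 A, an RRTS of 36.1% (interval 9.83 to 92.3), and the splice junction 3 nt past its stop codon lies before the counted bases. SMG8, the other gene ending in TAA, had 0 and 0 reads, which allow 12.5% and 6.62%, and 3 in G418 A, an RRTS of 8.41% (1.73 to 24.6). Its limits were the lowest of the 5 genes.

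SMG9, ending in TGAG, had 0 and 0 readthrough reads, which allow 17.8% and 13.2%, and 4 in G418 A, an RRTS of 14.95% (interval 4.07 to 38.3). SMG6, with the same TGAG, had 0 reads in all 3 libraries, which allow 130%, 71.5% and 108%, limits too high to be informative. UPF2, ending in TGAT, had 0 and 0 reads, which allow 117% and 68.7%, and 1 in G418 A, an RRTS of 34.9% (0.883 to 194). The intervals of all 4 genes with reads overlapped, and no order among them could be read at this depth.

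Summed over the 5 genes, G418 A had 12 readthrough reads where 79.2 were expected at the density of the CDS, a pooled RRTS of 15.2% (interval 7.83 to 26.5). The pooled RRTS over all tested transcripts was 21.3%, which would have placed 16.9 reads on the 5 genes. Untreated A and Untreated B had 0 reads where 147 were expected together, which allows 2.04% at 3 reads over both. The pooled RRTS in G418 A was 7.44 times this limit, and the low end of its interval was 3.85 times it. Against the limit of Untreated B alone the ratio was 4.70 (2.43 from the low end), and against that of Untreated A alone 2.74 (1.42 from the low end). UPF1 and SMG8, ending in TAA, had a pooled RRTS of 14.96% (6.02 to 30.8) in G418 A, beside 12.2% for all tested transcripts ending in TAA. UPF2, SMG6 and SMG9, ending in TGA, had 15.4% (5.01 to 36.0), beside 29.9% for all ending in TGA and 22.8% for all ending in TGAG.

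**Figure D4:**
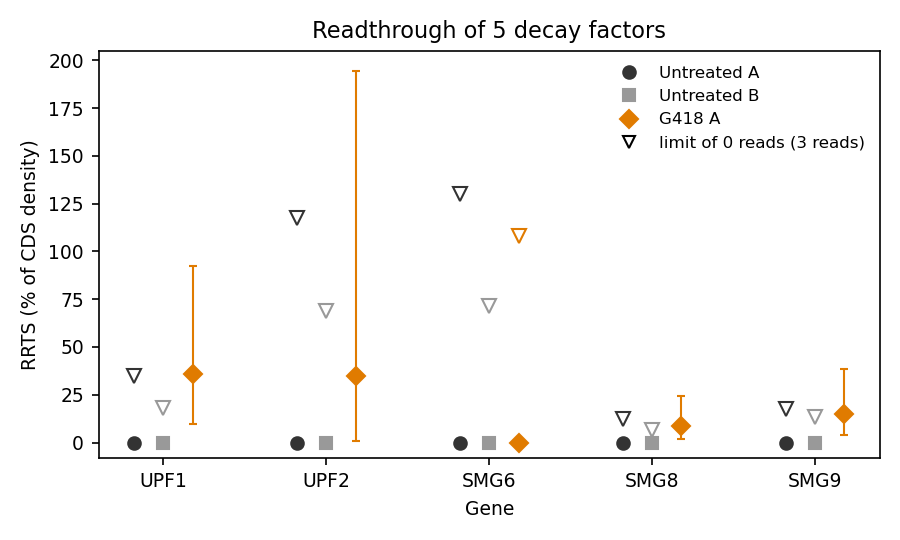
RRTS in percent of CDS density (vertical axis) of the 5 genes (horizontal axis) in each library, with exact 95% Poisson bars where reads were found. Open triangles mark the value that 3 reads would give where a library had 0. UPF1, UPF2, SMG8 and SMG9 have readthrough reads in G418 A only, and SMG6 has none.

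The whole 3'UTR held 0 and 8 reads of the 5 genes in the untreated libraries and 23 under G418. UPF1 had 0, 3 and 10 of them in this order, SMG9 0, 4 and 6, SMG8 0, 0 and 5, UPF2 0, 1 and 1, and SMG6 0, 0 and 1. As a share of the reads of the transcript, G418 A was above both untreated libraries for 5 of 5 genes, against 79.0% of tested transcripts. For UPF2 and SMG6 this rested on 1 read in G418 A. Summed over the 5 genes the 3'UTR share was 0%, 0.192% and 0.740%, beside 0.292%, 0.246% and 2.42% over all tested transcripts. Of the 10 UPF1 reads in G418 A, 6 lay outside the counted readthrough region, as did 2 of 5 in SMG8, 2 of 6 in SMG9 and the 1 read of SMG6. For SMG9, the gene with the longest 3'UTR of the 5, the share was 1.19% in Untreated B and 1.47% in G418 A, a difference within the counting error of 4 and 6 reads.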

How the data were processed

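Duplicate reads were collapsed by their unique molecular identifiers with tally by the authors, trimmed with seqtk and skewer, and aligned with STAR to hg38 with GENCODE 30. Only primary alignments of multimapping reads were kept, and fragments of 28 to 35 nt were placed at the A site, with 1 transcript kept for each gene. The submitters' processing notes also name CASAVA 1.8. The authors deposited RPM values and whole-number counts for each region, RPKM densities (RPM per kilobase, with 33 nt of the CDS and 6 nt after the stop codon left out) and RRTS as a ratio of densities.

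All nonzero RPM values (100%) were whole multiples of 1 read within a tolerance of 0.01, so reads were recovered by division. The deposited CDS counts were 1 lower than these in 9080, 283 and 72 transcripts of Untreated A, Untreated B and G418 A and served as an alternative. The deposited 5'UTR density was not used because it is undefined for transcripts without a 5'UTR.

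Recovered CDS reads of the 5684 transcripts found in every library and averaging 128 CDS reads or more were fitted with edgeR 4.0.16 (glmQLFit, glmQLFTest, R 4.3.3), with library sizes set to the reads behind the RPM scale and Benjamini-Hochberg adjustment over all of them. The fit was also run on simulated counts. These gave the G418 library the spread of the untreated pair, so they could not check that assumption. Log2 ratios of RPKM carry no pseudocount. DESeq2 1.42.0, TMM, other read minimums, a pseudocount of 1 RPKM and leaving out each untreated library were alternatives. Intervals came from SciPy 1.17.1. A limit for a count of 0 is the value of 3 reads. Coordinates and sequences came from GENCODE 44 on hg38, in which UPF1 has a newer transcript version with a 5'UTR of 251 nt (266 nt in the tables).

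The members and lists were chosen with earlier results of these data known. From each further list the text names genes past an adjusted p of 0.05, or otherwise those with the highest and lowest log2 ratio. An item of the paralogues and partners list is not reported here. Groups followed the treatment label. PNRC2, PABPC1, RBM8A, ACIN1, GSPT1, DCP2 and BAG1 were not analysed here.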

Additional observations from a re-analysis of the deposited data

How the results depend on the processing

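No paired analysis was possible because the untreated and G418 groups share only the replicate letter A. The count of 0 calls among the 5 decay factors was the same with TMM, DESeq2 (3 of 5 adjusted p-values missing), no read minimum, at least 500 reads (2 genes tested) and the deposited counts. Without a read minimum, SMG9 had an unadjusted p of 0.0496 and an adjusted p of 0.384 by edgeR. Calls among the further pathway genes were 1 of 51 as reported, 0 with TMM, 0 of 51 with DESeq2 (25 adjusted p-values missing), 2 of 58 without a minimum and 0 of 30 at 500 reads, where RNPS1 was still tested and missed the threshold. Their median log2 ratio was -0.03 as reported and -0.11 with TMM, which centres all transcripts near 0. The ratio of the pooled RRTS in G418 A to the untreated limit was 7.44 as reported and ranged from 2.74 to 4.70 when an untreated library was left out, since fewer reads were then expected. Leaving out an untreated library leaves no residual degrees of freedom, so it gave values with no test. DESeq2 and the 500-read minimum for the further genes were chosen after seeing the data. Over all transcripts, edgeR called 173 higher and 33 lower as reported, 110 and 41 with TMM, 10 and 17 with DESeq2 (3747 adjusted p-values missing), 187 and 31 without a minimum and 27 and 13 of 2408 at 500 reads. Values over the whole CDS were not run, because the deposited CDS reads and lengths already leave its ends out. Few reads were expected past the stop codons of SMG6 and UPF2, whose limits were 68.7% or more in each untreated library.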

Other observations

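The following genes were chosen after their values were seen, and all had fewer reads than the minimum for testing. TMM and DESeq2 were run only with that minimum, so whether the edgeR values below would hold under them was not tested. UPF3A, the paralogue of UPF3B, had 64, 71 and 65 CDS reads in Untreated A, Untreated B and G418 A, and 0, 0 and 11 readthrough reads. Its RRTS in G418 A was 438% (exact Poisson interval 219 to 784), so the region past its stop codon held more ribosomes per length than its CDS, and 13 of its 78 reads in that library lay in the 3'UTR. CNOT7, a deadenylase, had 10.8, 10.5 and 38.5 RPKM on the CDS from 52, 82 and 229 reads, and in the edgeR fit without a read minimum its log2 ratio was 1.86 (adjusted p = 2.12e-04). DDIT3, a stress response transcription factor whose mRNA is known as an NMD substrate, had 14, 25 and 65 reads, a log2 ratio of 1.83 and an adjusted p of 0.0595 in the same edgeR fit.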
